A study of Mus musculus with 63 samples.

Results

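The dentate gyrus of wildtype organotypic entorhino-hippocampal tissue cultures was compared between cultures with an entorhinal cortex lesion (ECL) and non-lesioned control cultures. These libraries were chosen by their labels alone, as dentate gyrus tissue of wildtype C57BL/6 cultures, and they are 11 of the 63 libraries of the series: 7 from lesioned and 4 from control cultures. All were prepared from C57BL/6J mice (Synpo+/+) of either sex at postnatal days 3 to 5 and were kept in culture for 18 days or longer, and lesioned tissue was taken 3 days after the scalpel cut that severs the perforant path. Each library holds polyadenylated RNA of 1 dentate gyrus, cut by scalpel from 1 culture, so neighbouring tissue can be included and the replicates are cultures and not animals known to be separate. The transcripts were counted per gene, and total counts ran from 14147174 to 25190705 in the controls and from 14055930 to 46043990 after ECL. Levels below are normalised read counts, that is, counts divided by the effective size of each library. Fold changes are log2 values of ECL against control with their standard error (SE), and a gene was called when its adjusted p in edgeR's quasi-likelihood test was under 0.05.

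The perforant path carries the main cortical input to the dentate gyrus and ends on the outer dendrites of granule cells, the principal neurons of this region. When it is cut, the severed axons degenerate, microglia and astrocytes react and clear debris, and the granule cells lose part of their excitatory synapses while their cell bodies stay intact. Because the cut lies outside the dentate gyrus, the tissue taken here holds the denervated cells and the degenerating axon endings but not the cell bodies that were severed.

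Before the comparison the labelled region was checked against its markers. Prox1, the transcription factor that defines granule cells, lay between 144 and 235 CPM (counts scaled to a common library total) in 10 of the 11 libraries but at 12.7 CPM in ECL replicate 5, where the 5 wildtype CA3 libraries gave 11.2 to 18.4 CPM. In the same library C1ql2, a granule cell gene, read 0.478 CPM against 20.2 to 37.6 CPM in the other 10. Bok, a gene of CA3 pyramidal cells, read 48.1 CPM there against 14.1 to 24.5 CPM in the others. The library labelled ECL replicate 5 therefore goes against its region label on these markers, and each count of a gene list below was repeated without it. It is also the deepest library, with the highest total count given above.

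**Figure D1:**
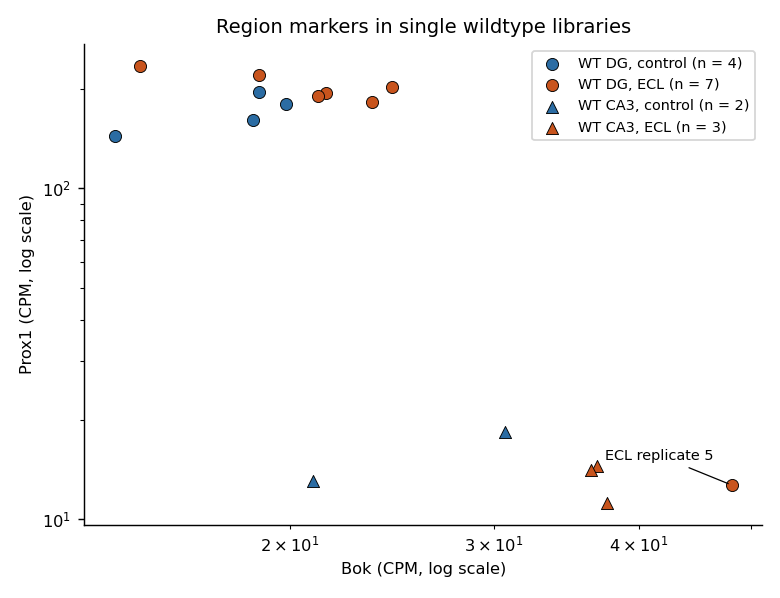
Prox1 (vertical axis) against Bok (horizontal axis) in each wildtype library, both in CPM on log scales, with circles for dentate gyrus, triangles for CA3, blue for control and orange for ECL. Of the dentate gyrus circles, 10 lie between 144 and 235 CPM of Prox1, and the circle of ECL replicate 5 lies at 12.7 CPM, within the Prox1 range of the triangles.

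Other facts of the libraries move with the lesion or stand apart. All 4 controls had more Xist than Y-linked counts, whereas 3 of the 7 lesioned libraries had more Y-linked counts, so the sexes are not balanced. Mitochondrially encoded transcripts took 9.63% to 13.6% of counts in controls and 6.83% to 10.9% after ECL (exact permutation test, 2-sided, p = 0.0182, adjusted over 5 library measures p = 0.0265). Unconfirmed gene models of the annotation took 0.819% to 0.966% in controls and 0.389% to 0.794% after ECL, without overlap of the groups (exact permutation test, p = 0.00909, adjusted p = 0.0265). Genes with at least 1 count numbered 41342 to 43289 in controls and 34715 to 42088 after ECL. Protein-coding genes took 85.4% to 88.7% and 87.6% to 92.4% of counts. By the same test the adjusted p was 0.0265 for both and 0.391 for total counts. Ttr, the main transcript of choroid plexus, exceeded 1000 CPM in ECL replicates 1 and 3 and stayed at or below 56.3 CPM in every control. The part of these differences in the results was not tested beyond the repeats given below. In a bulk library, fewer cells of a type and less RNA per cell cannot be told apart.

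Of 23720 genes tested, 2886 were called (12.2%), 1864 of them higher after ECL (7.86%) and 1022 lower (4.31%). These percentages are the background for every count of a gene list below. The median log2 fold change over all genes tested was -0.003, that over protein-coding genes 0.107 and that over the 8500 genes with a mean normalised count over 300 was 0.198, so the lists, which hold mostly such genes, are to be read against a middle above 0. The calls differed in kind between the directions: 1805 of the higher but 528 of the lower calls were protein-coding, and 246 of the lower calls were unconfirmed gene models. Among the 8500 genes with a mean normalised count over 300, 1399 were called (16.5%), 1279 higher and 120 lower. The split depended on the treatment of gene length: 64.6% of the calls were higher as counted, and 37.7% when the length trend of each library was removed, which gave 2356 calls (9.93% of genes), 889 higher (3.75%) and 1467 lower (6.18%), and put the median of all genes at -0.14. Removing the GC trend as well gave 742 higher and 686 lower. The direction of a small change therefore depended on the scaling, and list counts with the length trend removed are given for the lists that lost the most calls. The count of calls also rested on single libraries: it was 1021, 1016 and 999 without control replicate 2, 3 and 4, and 1400 without ECL replicate 4. Without ECL replicate 5 it was 3250 (13.8%), with 1998 higher (8.46%) and 1252 lower (5.3%), and 2710 of these were also called with it. DESeq2 called 4219 genes (17.8%), 2303 of them higher. In 1630 genes (6.87%) all 7 lesioned libraries lay above all 4 controls, and in 1012 (4.27%) all lay below them.

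**Figure D2:**
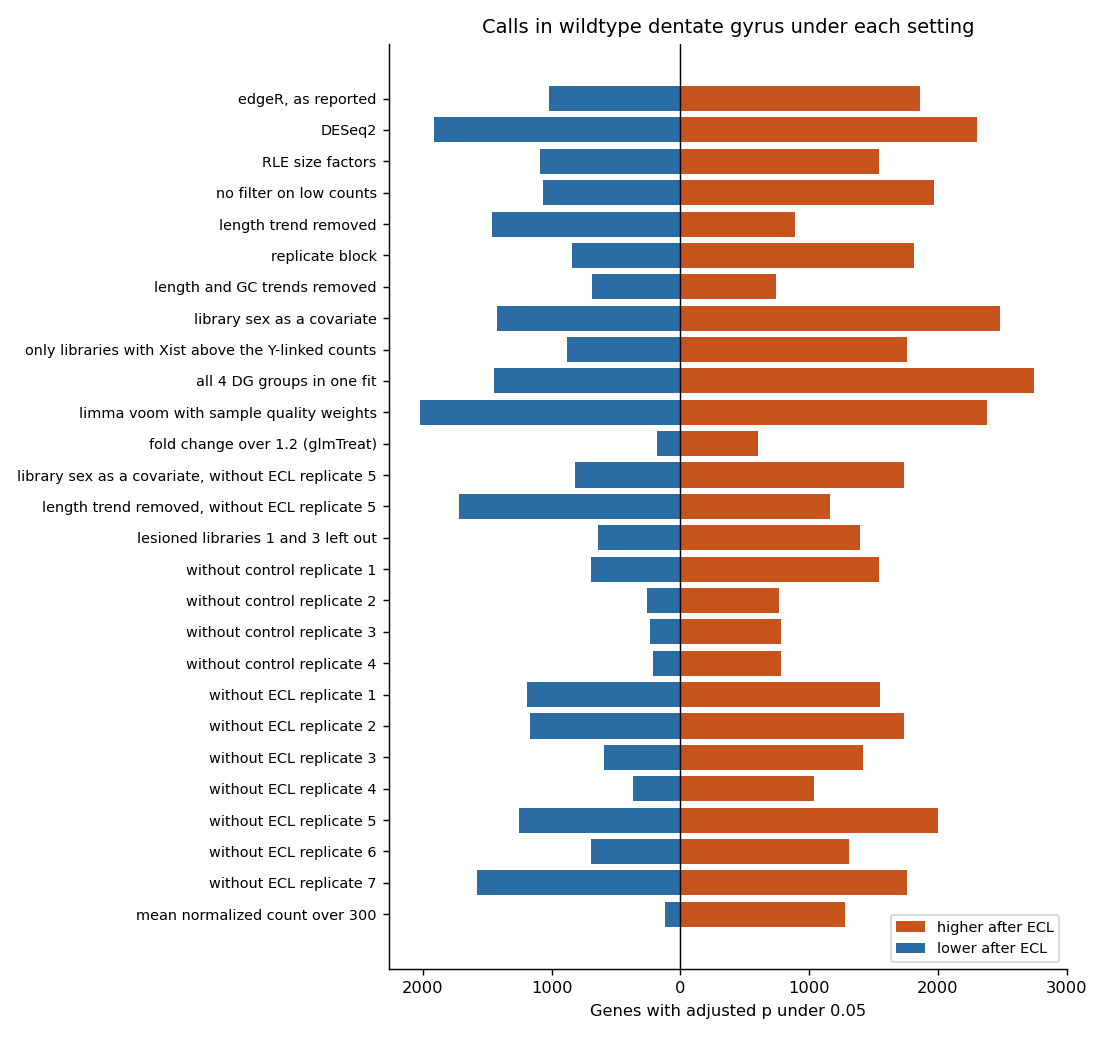
Number of genes called higher (orange, to the right) and lower (blue, to the left) after ECL under the reported test and under each alternative. The reported test gives 1864 higher and 1022 lower calls, removal of the length trend reverses the larger side, and leaving out 1 control gives as few as 216 lower calls.

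Microglial genes rose together. All 15 tested markers of microglia, the resident macrophages of the brain, were called higher (median 0.89 in log2). Without ECL replicate 5, 15 were called, and with the length trend removed 11. Fcrls, a surface receptor typical of microglia (ENSMUSG00000015852.13, chr3:87250758-87263738, GRCm38), read 364, 284, 294 and 344 in the 4 controls and from 881 to 1095 (median 916) in the 7 lesioned libraries. The groups did not overlap, and the log2 fold change was 1.58 ± 0.12, adjusted p = 1.01e-05. Aif1, which encodes the microglial marker Iba1, read 1027, 989, 988 and 1262 in controls and from 2298 to 3409 (median 3119.6) after ECL, with the lowest lesioned value in ECL replicate 5 and no overlap. Its log2 fold change was 1.51 ± 0.13, adjusted p = 2.15e-05. Cx3cr1, the receptor for the neuronal chemokine fractalkine, read 607 to 808 in controls and 1178 to 1410.5 after ECL (0.92 ± 0.11, adjusted p = 0.000159). The summed level of the microglial markers was 373 to 526 CPM in controls and 754 to 991 CPM after ECL. Of 7 markers of border macrophages 3 were called higher, among them Pf4 (1.53 ± 0.36, adjusted p = 0.0152), which read 64.5 in ECL replicate 5 and 82.4 to 103 in controls.

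Complement gene products tag synapses and debris for removal. Of 19 tested, 11 were called higher and 0 lower (median 0.57). C1qc, a chain of the initiating protein C1q (ENSMUSG00000036896.5, chr4:136889804-136893065), read 1654, 1388, 1593 and 1762 in controls and from 3754 to 5090.1 (median 4381) after ECL. That is a log2 fold change of 1.45 ± 0.11, adjusted p = 1.01e-05, and the groups did not overlap. C1qa (1.48 ± 0.14, adjusted p = 2.92e-05) and C1qb (1.29 ± 0.13, adjusted p = 4.64e-05), the other chains, also rose. C3, the central component that C1q activation cleaves, read 156 to 282 in controls and 327 to 527 after ECL (0.97 ± 0.17, adjusted p = 0.0032), and C4b, an upstream component, rose by 0.57 ± 0.10, adjusted p = 0.00282. Itgam, a subunit of complement receptor 3, which binds C3 fragments on microglia, rose by 1.25 ± 0.15, adjusted p = 0.000213.

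Genes of phagocytosis and lysosomal degradation were the next group. Of 27 genes of phagocytic microglia, 25 were called higher and 0 lower (median 0.95), and 21 remained called higher with the length trend removed. Tyrobp, the adaptor of the lipid-sensing receptor Trem2, read 1912, 1803, 1996 and 2219.7 in controls and from 3587 to 4112 (median 3792) after ECL (0.94 ± 0.10, adjusted p = 5.37e-05). Trem2 itself read 791 to 1005 in controls and 1427 to 2004 after ECL (0.91 ± 0.12, adjusted p = 0.000322). Both pairs of ranges are apart. Cathepsins, the proteases of lysosomes, were represented by Ctsz (1.21 ± 0.11, adjusted p = 2.32e-05) and Ctsh (1.39 ± 0.14, adjusted p = 5.07e-05), and Cd63, a membrane protein of late endosomes, rose by 1.08 ± 0.12, adjusted p = 6.42e-05. In the broader lysosome list 17 of 35 genes were called higher and 0 lower (median 0.51), led by Gusb (1.16 ± 0.12, adjusted p = 3.92e-05), a hydrolase of glycosaminoglycans. With the length trend removed 14 of the lysosome genes were called higher, and 9 with the GC trend removed as well. Of 32 microglial receptors and signalling genes 21 were called higher, including Fcer1g (0.91 ± 0.13, adjusted p = 0.00072) and Fcgr1 (1.21 ± 0.16, adjusted p = 0.00045), parts of activating Fc receptors.

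Genes that carry lipids out of cells came next. Of 21 genes of lipid efflux and lipoproteins, 12 were called higher and 1 lower. Plin2, which coats lipid droplets, read 265, 210.5, 356 and 273 in controls and from 635 to 848 (median 736) after ECL, a rise of 1.42 ± 0.14, adjusted p = 3.36e-05. Abca1, the cholesterol efflux pump, read 1979.9, 1688, 1620.4 and 1566 in controls and from 1752 to 4547 (median 4051) after ECL (1.17 ± 0.20, adjusted p = 0.0025). Its lowest lesioned value again belonged to ECL replicate 5, and without that library the adjusted p was 9.19e-07 at a log2 fold change of 1.27. Abcg1, a second exporter, rose by 0.91 ± 0.14, adjusted p = 0.00139 and Npc2, which carries cholesterol out of lysosomes, by 0.73 ± 0.12, adjusted p = 0.00215. Apoe, the main apolipoprotein of the brain, read 8103 to 24355 in controls and 12855 to 52993 after ECL and did not pass the test (0.97 ± 0.36, adjusted p = 0.0843). Cholesterol synthesis gave 1 higher and 1 lower call of 22, and 5 lower calls without ECL replicate 5. Insig1, a sterol-sensing regulator of that pathway, was the gene called lower (-0.55 ± 0.13, adjusted p = 0.0175).

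Genes of inflammatory signalling were called in part. Among 20 chemokines and receptors 8 were called higher, and the smallest p belonged to Cxcl16, a membrane-bound chemokine (1.40 ± 0.18, adjusted p = 0.000313). Among 21 cytokines and inflammatory mediators 7 were called higher, but 2 with the length trend removed. Those with the smallest p were Ptgs1, a prostaglandin synthase (0.77 ± 0.14, adjusted p = 0.00341), and Tnfrsf1a, a receptor of tumor necrosis factor (0.64 ± 0.12, adjusted p = 0.00565). Of 19 antigen presentation genes 6 were called higher, among them Psmb8, an immunoproteasome subunit (0.93 ± 0.14, adjusted p = 0.000889), and the class I gene H2-D1 (0.66 ± 0.12, adjusted p = 0.00324), and 2 with the length trend removed.

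Interferon-stimulated genes are switched on through a shared promoter element, the interferon-stimulated response element. Of 30 tested, 15 were called higher and 0 lower (median 0.68), and 19 were called without ECL replicate 5. Bst2, or tetherin, which holds enveloped viruses at the cell surface, read 147, 143, 131 and 161 in controls and from 289.9 to 452 (median 384) after ECL (1.36 ± 0.14, adjusted p = 6.42e-05). Ifitm3, which blocks viral entry, rose by 1.24 ± 0.16, adjusted p = 0.000293, its neighbour Ifitm2 by 0.94 ± 0.15, adjusted p = 0.00129 and Oas1a, a sensor of double-stranded RNA, by 1.57 ± 0.26, adjusted p = 0.00215. As a description of shared sequence, the 200 bases before the RefSeq start of each gene were searched on both strands for the core of the element, GAAA followed after any 2 bases by GAAA again. It was found in 12 of the 22 tested members with a promoter in RefSeq (GRCm38.p6), in 7 of the 12 called higher among these, and in 2.65% of all 27025 genes. The following 3 are those of the called members with the smallest p that hold it. Each is written from 5′ to 3′ on the strand of its gene, all on the minus strand, with the matches, which can overlap each other, in capitals, at chr8:71537473-71537672 for Bst2, chr7:140955962-140956161 for Ifitm2 and chr5:120907526-120907725 for Oas1a. A match is a description of these letters and not a measured binding site.
Bst2: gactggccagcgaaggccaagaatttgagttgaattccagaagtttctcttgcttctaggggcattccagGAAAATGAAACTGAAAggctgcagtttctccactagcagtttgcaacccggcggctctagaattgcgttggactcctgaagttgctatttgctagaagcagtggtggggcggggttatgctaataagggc
Ifitm2: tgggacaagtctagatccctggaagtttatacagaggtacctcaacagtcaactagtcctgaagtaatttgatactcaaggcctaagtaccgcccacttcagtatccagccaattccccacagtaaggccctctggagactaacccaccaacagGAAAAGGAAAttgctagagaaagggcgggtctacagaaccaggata
Oas1a: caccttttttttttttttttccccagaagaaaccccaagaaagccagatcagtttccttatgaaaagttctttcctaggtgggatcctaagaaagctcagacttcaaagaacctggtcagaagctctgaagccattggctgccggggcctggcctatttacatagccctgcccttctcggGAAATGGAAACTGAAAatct

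Genes of reactive astrocytes, too, were called higher in part. Of 26 genes of reactive astrocytes 14 were called higher and 0 lower (median 0.64), and 18 were called without ECL replicate 5. Gfap, the intermediate filament of astrocytes (ENSMUSG00000020932.14, chr11:102887336-102900912), read 22551, 16250.3, 18502 and 19317 in controls and from 46413 to 66404 (median 51212) after ECL. The log2 fold change was 1.44 ± 0.14, adjusted p = 2.92e-05, a 2.71-fold rise with no overlap. Serpina3n, a secreted protease inhibitor, read 3947, 3130.1, 3863 and 5084 in controls and from 8791 to 16209 (median 11512) after ECL (1.56 ± 0.17, adjusted p = 9.66e-05). Vim, a second intermediate filament, rose by 1.05 ± 0.15, adjusted p = 0.000651, S100a6, a calcium-binding protein, by 1.00 ± 0.11, adjusted p = 6.42e-05, and S1pr3, a receptor for sphingosine 1-phosphate, read 374 to 440.0 in controls and 739.6 to 1157 after ECL (adjusted p = 6.42e-05). Of 12 general astrocyte markers 6 were called higher (median 0.49), with summed levels of 4787 to 5392 CPM in controls and 5086 to 6955 CPM after ECL. Gja1, a gap junction protein, rose by 0.96 ± 0.15, adjusted p = 0.0016 and the water channel gene Aqp4 by 0.87 ± 0.14, adjusted p = 0.00126. Kcnj10, the potassium channel through which astrocytes buffer potassium, read 934 to 1242 in controls and 1660.0 to 2609.6 after ECL (1.00 ± 0.14, adjusted p = 0.000513). A2m, a broad inhibitor of proteases, was among the 12 higher genes with the smallest p (1.25 ± 0.11, adjusted p = 2.54e-05).

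**Figure D3:**
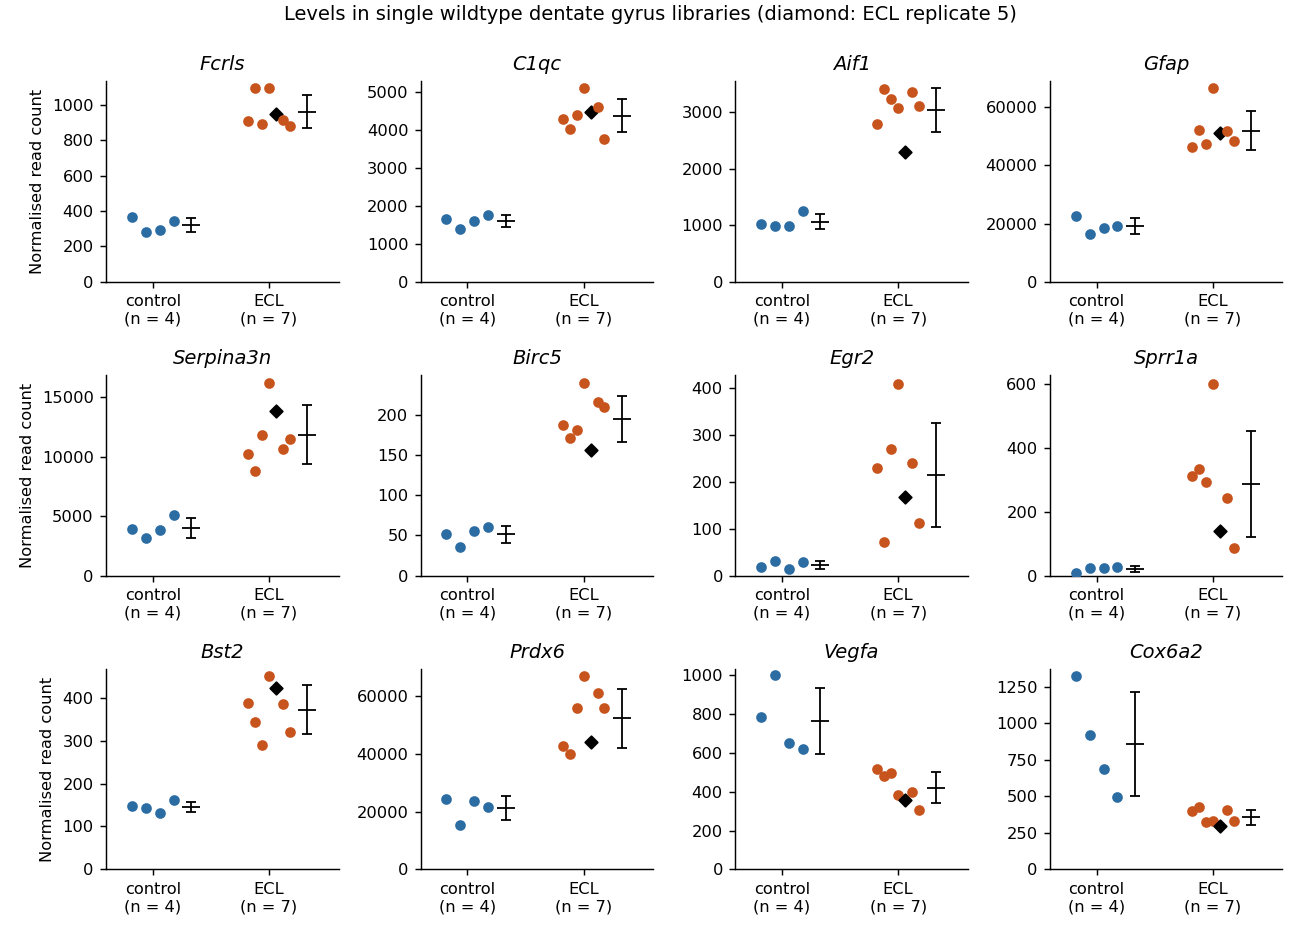
Normalised read counts (vertical axes, from 0) of 12 genes in each library, 4 controls in blue and 7 lesioned in orange, with the mean and SD beside each group and ECL replicate 5 as a black diamond. In all 12 panels, drawn for genes picked from those called, the lesioned and control points do not overlap. Of all genes tested, 6.87% had every lesioned library above every control and 4.27% below. The lesioned points of Sprr1a run from 86.4 to 599.

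Genes of cell division were called higher in part. Of 31 tested, 16 were called higher and 0 lower (median 0.66), 13 with the length trend removed. Birc5, or survivin, part of the complex that separates chromosomes, read 52.3, 36, 55.4 and 60.8 in controls and from 156 to 239 (median 187) after ECL. This was a 3.77-fold rise (1.92 ± 0.18, adjusted p = 2.92e-05). Top2a, the topoisomerase of replicating DNA, read 116 to 196 in controls and 352 to 645 after ECL (1.51 ± 0.20, adjusted p = 0.000337), Ccnb2, a mitotic cyclin, rose by 1.70 ± 0.21, adjusted p = 0.000265 and its partner kinase Cdk1 read 54.3 to 93.7 in controls and 142 to 244 after ECL (adjusted p = 0.000356). Mki67, the gene of the proliferation marker Ki-67, rose by 1.21 ± 0.22, adjusted p = 0.00364. The libraries do not show in which cells these transcripts lie. Many mitotic genes carry CCAAT boxes, and CCAAT was found on either strand within 200 bases before the start in 20 of 25 members with a RefSeq promoter and in 32.7% of all genes. The promoters of the 3 called members with the smallest p that hold it are written in the same way, all from the minus strand of GRCm38.p6, at chr9:70421555-70421754 for Ccnb2, chr11:99024190-99024389 for Top2a and chr10:69352913-69353112 for Cdk1. Capitals mark CCAAT or its reverse complement ATTGG. For microglial genes the letters GAGGAAGT, a core bound by the factor PU.1, were searched in the same way and lay in 0 of 10 members with a promoter and in 2.39% of all genes.
Ccnb2: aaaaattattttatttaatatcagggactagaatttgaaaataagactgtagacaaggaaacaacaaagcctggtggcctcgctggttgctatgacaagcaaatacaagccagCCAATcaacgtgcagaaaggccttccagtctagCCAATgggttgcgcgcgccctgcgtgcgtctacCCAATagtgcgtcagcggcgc
Top2a: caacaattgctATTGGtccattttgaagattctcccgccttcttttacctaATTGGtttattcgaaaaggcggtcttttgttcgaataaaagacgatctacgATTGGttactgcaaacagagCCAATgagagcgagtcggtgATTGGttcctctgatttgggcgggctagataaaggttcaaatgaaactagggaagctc
Cdk1: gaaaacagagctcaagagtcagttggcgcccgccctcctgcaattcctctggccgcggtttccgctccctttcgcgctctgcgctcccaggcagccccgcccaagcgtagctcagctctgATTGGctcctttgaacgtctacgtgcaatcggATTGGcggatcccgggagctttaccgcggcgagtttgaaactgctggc

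Immediate early genes and later effectors of activity were called higher in part. In which cells these transcripts lie cannot be told from bulk libraries, and neuronal firing was not measured in them. Of 22 immediate early genes, which neurons switch on within minutes of firing, 12 were called higher and 0 lower (median 0.99). With the length trend removed 9 were called higher. Egr2, a zinc finger transcription factor (ENSMUSG00000037868.15, chr10:67535475-67542188), read 19.1, 31.9, 13.3 and 28.8 in controls and from 72.6 to 408 (median 229.8) after ECL. All lesioned libraries were above all controls, but the lesioned ones were widely spread, and the log2 fold change was 3.22 ± 0.44, adjusted p = 0.000482. Arc, whose product removes glutamate receptors from synapses, read 39, 34.6, 26.6 and 24.7 in controls and from 87.8 to 535 (median 181) after ECL (2.90 ± 0.48, adjusted p = 0.002), with the highest value in ECL replicate 5. Without that library the log2 fold change of Arc was 2.52 (adjusted p = 0.000311). Fos read 586 to 949 in controls and 1009.5 to 3602 after ECL (1.61 ± 0.27, adjusted p = 0.0019) and Egr1 read 446 to 607 and 816 to 2864 (1.79 ± 0.27, adjusted p = 0.000999). The CRE TGACGTCA, the site of the factor CREB, lay in the 200 bases before the start of 2 of 18 members with a promoter and of 1.69% of all genes. Of 24 later effectors of activity 5 were called higher and 1 lower. Bdnf, the growth factor of active neurons, read 1264 to 2105 in controls and 1949 to 4259.9 after ECL (0.88 ± 0.22, adjusted p = 0.0219), and ECL replicates 1 and 7 lay below the highest control. Inhba, a subunit of activin, was the lower call (-0.68 ± 0.20, adjusted p = 0.0423).

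In the axon growth list 5 of 23 genes were called higher and 0 lower. Sprr1a, a small proline-rich protein induced in injured neurons (ENSMUSG00000050359.7, chr3:92483952-92485895), read 7.47, 24.9, 24.4 and 26.8 in controls and from 86.4 to 599 (median 293) after ECL. Its log2 fold change of 3.81 ± 0.51, adjusted p = 0.000407 was the highest of the called genes named here, sex-linked genes aside. Of 5 sex-linked genes 4 were called higher, with log2 fold changes up to 7.38. The groups were not balanced in sex, as given above. Atf3, a transcription factor of nerve injury, read 145 to 224 in controls and 246 to 452 after ECL (0.97 ± 0.17, adjusted p = 0.00277), and Cd24a, a surface protein of immature neurons, rose by 0.68 ± 0.13, adjusted p = 0.00596. In the gp130 and STAT3 list 3 of 15 were called higher, with Stat3 at 0.50 ± 0.13, adjusted p = 0.0224 and its receptor subunit Il6st at 0.46 ± 0.12, adjusted p = 0.0227.

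Few transcripts of synapses and channels were called. None of 27 glutamate receptor genes and none of 28 sodium and calcium channel genes was called by edgeR, with 2 and 3 of them at an unadjusted p under 0.05 and 1 called in each list by DESeq2. Gria1, an AMPA receptor subunit, came closest of the former (0.39 ± 0.13, adjusted p = 0.0573), with control values of 6343 to 8518 and lesioned values of 8597 to 12174. Cacna1g, a T-type calcium channel, came closest of the latter (-0.74 ± 0.25, adjusted p = 0.0593). Of 16 GABA receptor genes 1 was called, Gabrd, the delta subunit of extrasynaptic receptors on granule cells. It read 156, 205, 115 and 91.7 in controls and from 24.6 to 98.5 (median 71.6) after ECL and fell (-1.02 ± 0.29, adjusted p = 0.0369), with its lowest value of 24.6 in ECL replicate 5 and an adjusted p of 0.0148 without it. Of 36 postsynaptic scaffold and adhesion genes 3 fell and 0 rose: the adhesion molecules Adgrb3 (-0.37 ± 0.09, adjusted p = 0.0245), Mdga2 (-0.33 ± 0.09, adjusted p = 0.0351) and Ptprd (-0.41 ± 0.13, adjusted p = 0.0484). Of 32 vesicle and release genes Unc13c, a priming factor, fell (-1.22 ± 0.33, adjusted p = 0.0274) and Syngr1, a vesicle protein, rose (0.52 ± 0.15, adjusted p = 0.041). Of 41 potassium channel genes 2 were called lower and 1 higher, and 7 lower without ECL replicate 5. Of 63 protocadherins 1 was called, Pcdhb3 (-0.63 ± 0.16, adjusted p = 0.0252). Without ECL replicate 5 the lower calls were 0 for glutamate receptors, 1 for GABA receptors, 1 for sodium and calcium channels and 4 for protocadherins. They were 4 for scaffold and adhesion genes and 3 for vesicle and release genes, beside 5.3% of all genes, and 1 vesicle and release gene was called higher.

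Markers of the neuron types themselves gave no call in the full set. None of 13 granule cell markers (median -0.14), 9 markers of immature granule cells, 9 of CA3 and 6 of CA1 pyramidal cells or 12 of interneurons was called by edgeR or by DESeq2, while 0, 1, 1, 1 and 1 of them had an unadjusted p under 0.05. These lists depended on ECL replicate 5. Prox1 read 3020.5, 3161, 4143 and 3666 in controls, 343 in ECL replicate 5 and 3955 to 4996 in the other 6 lesioned libraries. Over all 11 libraries its adjusted p was 0.816. Because Prox1 and C1ql2 were the markers by which that library was set apart, no test of either is given without it. Synpo encodes synaptopodin, in which the mutant line of the study is deficient. It read 441, 526, 574 and 553 in controls and from 533 to 861 (median 651) after ECL and did not pass the test (0.36 ± 0.14, adjusted p = 0.0982). Of 9 markers of oligodendrocyte precursors 4 were called higher, led by Gpr17 (1.32 ± 0.29, adjusted p = 0.0122), and 0 with the length and GC trends removed. Of 12 markers of mature oligodendrocytes 1 was called, Cnp (0.80 ± 0.16, adjusted p = 0.00641). Of 10 endothelial markers Kdr (-0.64 ± 0.19, adjusted p = 0.0417) and Tek (-1.05 ± 0.33, adjusted p = 0.0494), receptors on the vessel wall, fell. The summed level of these markers was 29.3 to 42.7 CPM in controls and 17 to 28 CPM after ECL. None of 9 markers of mural cells and fibroblasts was called (0 at an unadjusted p under 0.05, 0 by DESeq2), and of 6 markers of ependyma and choroid plexus Folr1, a folate receptor, was called (2.92 ± 0.88, adjusted p = 0.0436), with 10.3 to 27.7 in controls and 19.1 to 535 after ECL. Without the lesioned replicates 1 and 3 neither Folr1 nor Kdr and Tek were called.

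**Figure D4:**
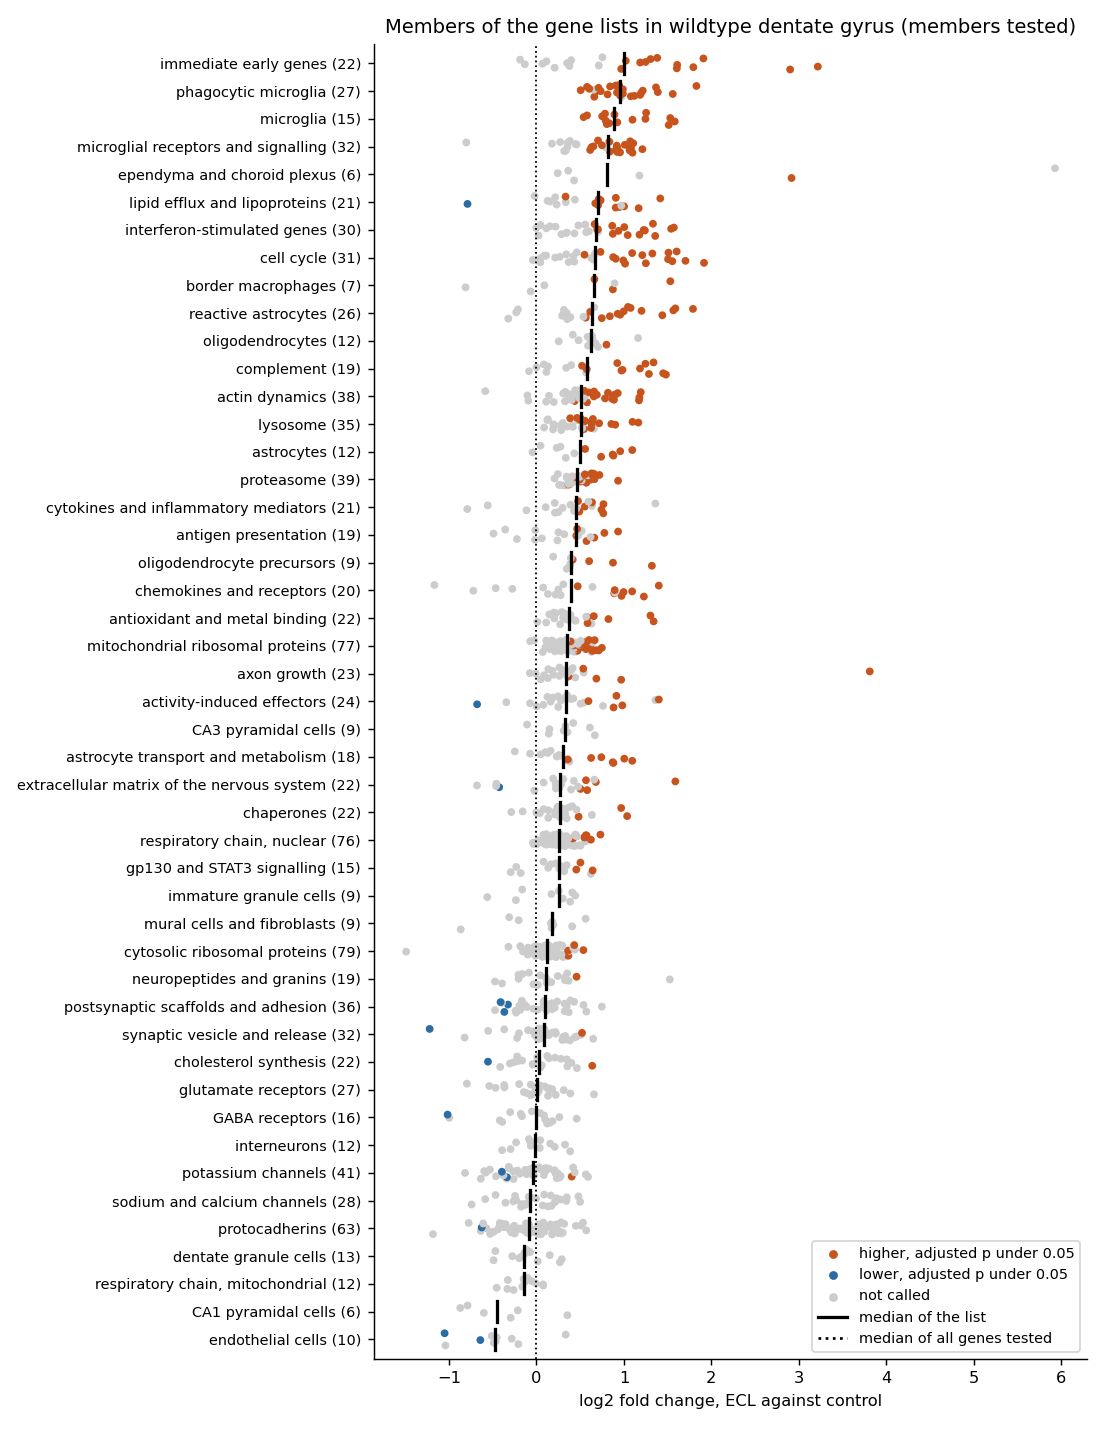
Log2 fold change of ECL against control (horizontal axis) for every tested member of the cell type and response lists, without the sex-linked genes and the lists added later, orange and blue where called higher and lower and grey where not called, with a bar at the median of the list and a dotted line at the median of all genes. The medians of immediate early, phagocytic and microglial genes lie at 0.99, 0.95 and 0.89. That of glutamate receptors lies at 0.01, close to the dotted line and below the 0.198 of genes with a mean normalised count over 300.

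Fewer well-expressed genes fell than rose. Cox6a2, a subunit of respiratory complex IV (ENSMUSG00000030785.8, chr7:128205435-128206387), had the smallest p of the protein-coding genes called lower at a mean over 300. It read 1321, 921, 689 and 492 in controls and from 296 to 428 (median 329.8) after ECL (-1.26 ± 0.20, adjusted p = 0.00129), and the controls varied more than the lesioned libraries. Vegfa, the growth factor of blood vessels, read 785, 1000.0, 654 and 620.1 in controls and from 305 to 517 (median 399) after ECL. It fell by 0.87 on the log2 scale (adjusted p = 0.00382). Ero1l, an oxidase of protein folding, read 2824 to 4182 in controls and 1358 to 2864 after ECL (-0.74 ± 0.16, adjusted p = 0.0106), with its highest lesioned value in ECL replicate 5. The others of the 12 with the smallest p were Atr (-0.68 ± 0.12), a kinase of the DNA damage response, Mttp (-0.57 ± 0.12), which loads lipids onto lipoproteins, Hook1 (-0.47 ± 0.10), an adaptor of vesicle transport, and Sclt1, D10Wsu102e, Rnf217, Pcgf5, G2e3 and Csmd1, with log2 fold changes from -0.66 to -0.43. Counting ignored strand, so the values of Cox6a2, Atr, Mttp, Hook1, Ctsz and Tspo, whose exons overlap those of another gene, could include or lose reads shared with it. The same holds for Bdnf, Cnp, Cx3cr1, Cxcl16, Itgam, Psmb8, Prox1, Stat3 and Top2a, and reads of near-identical copies such as Ifitm2 and Ifitm3, C4b and C4a, Oas1a and its copies or H2-D1 and H2-K1 may have been divided or lost.

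Genes of protein turnover and the cytoskeleton were called higher in part. Of 39 proteasome genes 18 were called higher (median 0.47), but 7 with the length trend removed and 4 with length and GC removed. Psmd6, a regulatory subunit, rose by 0.72 ± 0.14, adjusted p = 0.00648. Similarly 18 of 77 mitochondrial ribosomal proteins were called higher, and 7 with the length trend removed. With library sex as a covariate these counts were 34 for the proteasome and 40 for the mitochondrial ribosome. The nuclear respiratory chain genes gave 8 of 76 and 1, and the cytosolic ribosomal proteins 4 of 79 and 0. Of 38 actin genes 18 were called higher, 11 with the length trend removed. Add3, which caps actin at the membrane skeleton, read 7324, 6734, 6873 and 7973 in controls and from 14051 to 17985 (median 16242) after ECL (1.17 ± 0.11, adjusted p = 2.92e-05), and Capg, a capping protein of macrophages, rose by 1.18 ± 0.15, adjusted p = 0.000265. In the antioxidant list 6 of 22 were called higher. Gpx1, which detoxifies peroxides, rose by 1.34 ± 0.13, adjusted p = 2.92e-05, and Prdx6, a peroxidase abundant in astrocytes, read 15426 to 24294 in controls and 39896 to 66946 after ECL (1.30 ± 0.18, adjusted p = 0.00045). Of 22 chaperones 3 were called higher, among them the small heat shock proteins Cryab (1.04 ± 0.14, adjusted p = 0.000465) and Hspb8 (0.97 ± 0.12, adjusted p = 0.000265). Of 22 matrix genes 5 rose, led by Timp1, an inhibitor of matrix proteases (1.59 ± 0.25, adjusted p = 0.00118), and Hapln1, a link protein of perineuronal nets, fell (-0.43 ± 0.12, adjusted p = 0.0387).

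The same lesion was then compared with that of the Synpo-/- dentate gyrus (7 control and 4 lesioned libraries) and of the wildtype CA3 area (2 and 3), by a test of the difference between the lesion effects. Between genotypes 1 of 26245 genes was called (0.00381%), and 2730 had an unadjusted p under 0.05. Eps8l1, an adaptor of actin signalling, fell in wildtype (-1.72 ± 0.27, adjusted p = 0.00138) from 113, 163, 129 and 99.9 in controls to values from 21.2 to 60.7 (median 29.6) after ECL. In Synpo-/- dentate gyrus its own log2 fold change was 0.76 ± 0.27, and the difference was -2.45 ± 0.39, adjusted p = 0.0267. In CPM the wildtype controls held 4.90 to 8.34 and the lesioned wildtype libraries 0.908 to 2.85, while the Synpo-/- controls held 1.00 to 2.87 and the lesioned ones 1.67 to 4.52. The lesioned wildtype and the control Synpo-/- ranges overlap, and the control wildtype range lies above all of them. Its exons overlap those of another gene, and the call was lost without any one of 11 libraries, 6 of them wildtype dentate gyrus. In Synpo-/- dentate gyrus Gfap had a log2 fold change of 1.30 ± 0.12, C1qc of 1.31 ± 0.20, Egr2 of 3.77 ± 0.26 and Sprr1a of 5.37 ± 0.49, beside 1.44 ± 0.14, 1.45 ± 0.11, 3.22 ± 0.44 and 3.81 ± 0.51 in wildtype. The median of the phagocytic microglia list was 0.95 in wildtype and 0.84 in Synpo-/-, with 1 member at an unadjusted p under 0.05 for the difference. That of the proteasome list was 0.47 and 0.10, with 14 such members, and neither list had a member called. A difference that did not pass the test does not show that the genotypes respond alike.

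Between regions no gene of 27783 was called by edgeR (0.0%), 1240 had an unadjusted p under 0.05, and 10 (0.036%) were called by DESeq2. Without the lesioned CA3 replicate 3, 14 were called. Aif1 came closest: its log2 fold change was 0.25 ± 0.16 in CA3, and the difference was 1.22 ± 0.22, adjusted p = 0.509. When ECL replicate 5 was left out, 3 genes (0.0109%) were called: Aif1 (1.27 ± 0.19, adjusted p = 0.0165), Abca1 (1.03 ± 0.16, adjusted p = 0.019) and Ier3, a stress-response gene (-1.56 ± 0.22, adjusted p = 0.0165). For Abca1 the lesioned dentate gyrus libraries had a median of 188 CPM against a control maximum of 94.6 CPM, whereas in CA3 the control and lesioned libraries lay at 62.2 to 74.0 and 68.9 to 74.4 CPM. ECL replicate 5, labelled dentate gyrus, read 64.8 CPM. Labels do not say whether dentate gyrus and CA3 libraries came from the same cultures.

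**Figure D5:**
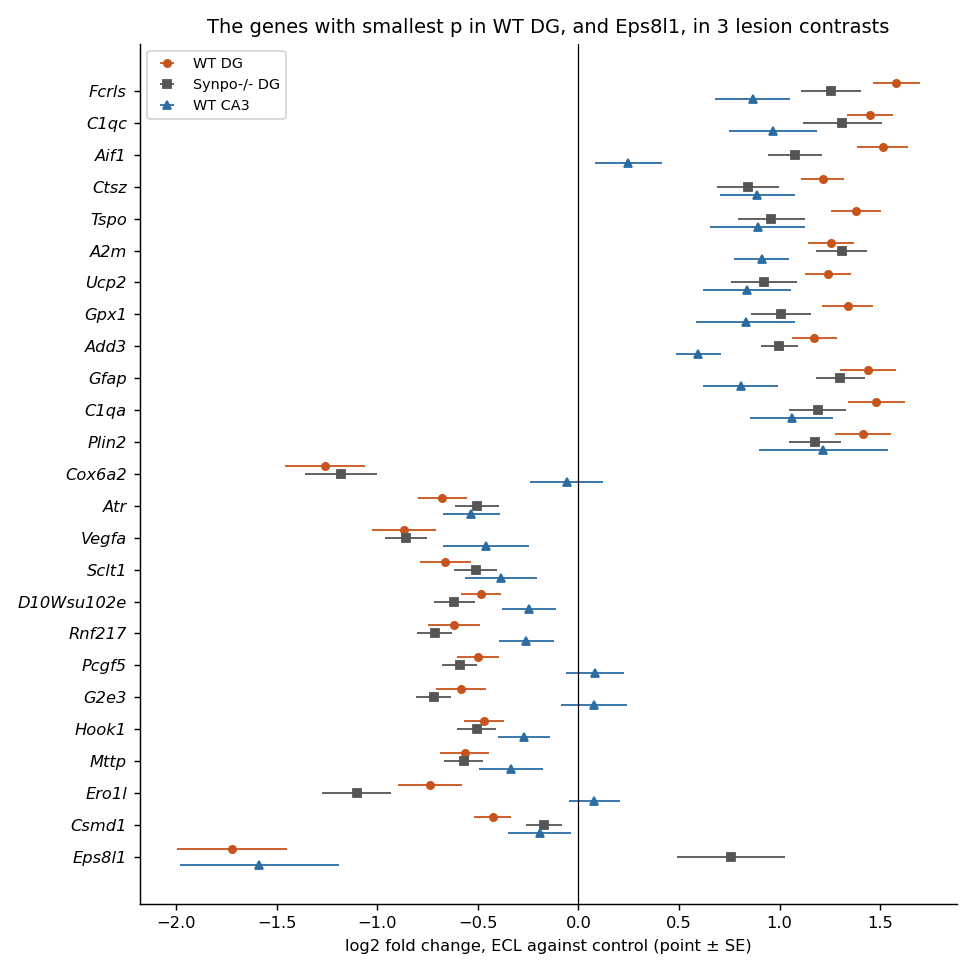
Log2 fold change of ECL against control with its SE (horizontal axis) in wildtype dentate gyrus (orange circles), Synpo-/- dentate gyrus (grey squares) and wildtype CA3 (blue triangles), for the 12 leading genes by p among those that rose, the 12 among those that fell, and Eps8l1. The wildtype and Synpo-/- points lie on the same side of 0 for the 24 leading genes, and for Eps8l1 they lie on opposite sides.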

How the data were processed

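RNA-seq libraries were labelled by the submitters by region, genotype, treatment and replicate, and these labels set the groups. By the study's methods, with versions from the submitters' processing notes, the authors trimmed reads with cutadapt 3.5, aligned them with STAR 2.7.8a to mouse mm10 (GRCm38) and assigned them to genes with featureCounts 2.0.1 without regard to strand, and they deposited raw counts of 55291 genes per library. There were no molecular identifiers, so counts are reads and not molecules. The 3 days after lesion come from the study's methods.

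Counts were filtered with filterByExpr, scaled by TMM and tested in edgeR 4.0.16 (R 4.3.3) with the quasi-likelihood test and Benjamini-Hochberg adjustment over all genes tested. Only the groups compared entered each fit. Lesion by genotype and lesion by region were tested as interactions. DESeq2 1.42.0, limma voom (limma 3.58.1), other scalings and filters, length and GC trends (lowess, span 0.3), sex and left-out libraries were alternatives. The fits were tested on simulated data, where DESeq2 called more unchanged genes than edgeR. Promoter letters came from RefSeq (GRCm38.p6).

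The 48 gene lists were chosen with earlier results of these data known, and 2 more (hypoxia-inducible and motile cilia genes) after their values were seen. Named genes were in each direction the 12 protein-coding genes of smallest p at a mean normalised count over 300, up to 4 called genes per list with the smallest p (or up to 2 where none was called), up to 5 called genes in each direction per interaction, and Prox1, Synpo and the sex-linked genes. Abca1, Apoe, Arc, C1ql2, C3, C4b, Hapln1, Ier3, Inhba, Mki67, Trem2, Ttr and Vim were named after their values were seen. Some members of the lists, though counted, are not reported here by name.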

Additional observations from a re-analysis of the deposited data

Results flagged for a closer look

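In 328 groups of values of a named gene, 26 had a library farther from the others than Dixon's 95% limit, where chance gives about 1 in 20 groups, and 10 of the 26 were ECL replicate 5. In that library the normalised read counts were the highest of the lesioned ones for Cnp (2663), Bok (1299.6), Nectin3 (3652), Rasl11a (1633) and Cnih2 (1830.0) and the lowest for F13a1 (282), Gja1 (6206), Rgs5 (899), Pdzd2 (279.9) and Prox1 (343). In other lesioned libraries Gfap was highest in replicate 4 (66404), Folr1 was highest in replicate 3 (535), Cd52 was lowest in replicate 2 (1847), Capg was highest in replicate 4 (1085), Psme2 was lowest in replicate 1 (2881). Control replicate 1 was the lowest of the controls for S1pr3 (374) and Sprr1a (7.47). Control replicate 2 was the highest of the controls for Cacna1g (238) and the lowest for Npc2 (2551), Ctsa (1123) and Psme2 (1713). Control replicate 3 was the highest of the controls for Egr1 (607) and Dusp6 (354) and the lowest for Top2a (116). Control replicate 4 was the highest of the controls for Aif1 (1262) and Cdk1 (93.7). The lesion effect on Eps8l1 differed between wildtype and Synpo-/- dentate gyrus by -2.45 in log2, by the interaction test given above.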

How the results depend on the processing

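Of 148 called named genes, none changed sign under any alternative, and 148 stayed called by DESeq2, 121 with the length trend removed, 100 with the length and GC trends removed and 93 when a fold over 1.2 was required. Without control replicate 2, 3 and 4, 105, 105 and 106 stayed called. These genes were called from the same libraries, so a kept sign is no separate support. The 2886 calls became 1428 with the length and GC trends removed, 4403 with limma voom, 785 over a fold of 1.2 and 1399 at a mean normalised count over 300. Leaving out 1 library gave 999 to 3338 calls, with 1021, 1016 and 999 without control replicates 2, 3 and 4 and 1400 without ECL replicate 4; the cause was not tested. After seeing the data, sex without ECL replicate 5 (2559 calls), length without it (2884) and leaving out the lesioned libraries 1 and 3 (2033) were added. The labels do not say whether equal replicate numbers pair the samples. Same-numbered libraries correlated at 0.047, 0.554, -0.007 and -0.225 over 8500 genes, which cannot decide it. Control replicate 2 correlated best with ECL replicate 2, and control replicates 1, 3 and 4 with ECL replicates 4, 6 and 7. With the replicate block 2657 genes were called. The single genotype difference became 2 calls by DESeq2, 0 with the replicate block, 0 at a mean over 300 and 0 to 1 without 1 library. The 0 region differences became 10 by DESeq2, 1 without a filter on low counts, 35 with the replicate block and 0 to 14 without 1 library, 14 without lesioned CA3 replicate 3 and 3 without ECL replicate 5. With 4 controls, low genes and small changes are the least certain.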

Other observations

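A pair of gene groups was assembled after values had been seen and is given as values only. Of 26 tested hypoxia-inducible genes 0 were called higher and 3 lower, beside 4.31% of all genes called lower. These were Vegfa (-0.87 ± 0.16, adjusted p = 0.00382), Ero1l (-0.74 ± 0.16, adjusted p = 0.0106) and Gbe1, the branching enzyme of glycogen (-0.42 ± 0.11, adjusted p = 0.0254). Without ECL replicate 5, 7 were called lower, and with the length trend removed 7. The median log2 fold change of the list was -0.09 in wildtype dentate gyrus, -0.38 in Synpo-/- dentate gyrus and 0.23 in wildtype CA3.

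Of 26 genes of motile cilia, which move fluid over ependyma, 3 were called higher and 1 lower, with Cfap126, an axoneme protein, at 1.12 ± 0.23, adjusted p = 0.00684 and Dynlrb2, a dynein light chain, at 0.99 ± 0.21, adjusted p = 0.0107. Ttr and Folr1, markers of choroid plexus, were highest in ECL replicates 1 and 3, and without these libraries 2 cilia genes were called higher and 1 lower. The median of the list was -0.03 in wildtype dentate gyrus, 0.36 in Synpo-/- dentate gyrus (6 called higher) and -1.22 in wildtype CA3 (5 called lower). In the region difference 13 of them had an unadjusted p under 0.05 and 0 were called. With the replicate block 9 of 27 were among the 35 calls of 26778 genes tested. That block rests on replicate numbers whose pairing is not known. In the lists not yet given, 7 of 18 genes of astrocyte transport and metabolism and 1 of 19 neuropeptides and granins were called higher, the latter Scg3, a granin of dense-core vesicles (0.46 ± 0.12, adjusted p = 0.025). None of 12 mitochondrially encoded respiratory genes was called by edgeR, where 1 had an unadjusted p under 0.05 and 1 was called lower by DESeq2.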
